A study of Drosophila melanogaster with 12 samples.

Results

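The autosome arms of Drosophila melanogaster hold 308 ORC2 regions that were listed in larval fat body at each of 3 stages, out of 3630 regions listed for the same arms at 2nd instar and 4239 listed at 2nd instar over the whole genome. A 2nd instar region on 2L, 2R, 3L or 3R was counted as an all-stage region if it lay within 1 kb of a mid-3rd instar region and also within 1 kb of a late-3rd instar region. The regions were therefore selected on the calls themselves, and their number, their replicates and their high-confidence peaks are given below as a description, with no test. ChIP-seq with an antiserum to ORC2 had been carried out on fat body of wild-type OregonR larvae, with 2 ChIP replicates and 2 inputs at each stage (12 libraries). Larvae were collected as 2nd instar (67 to 68 h after egg laying), as mid-3rd instar (91 to 92 h) and as late-3rd instar, when they wander. The study's methods name male larvae at 2nd and mid-3rd instar and give no sex for the wandering larvae. The fat body was dissected by hand from many larvae per sample, so each sample is a pool, and no sample carried a mutation or a treatment. The lists hold positions and no read counts, so the depth of the libraries is unknown here and no marker of the tissue can be checked in them.

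ORC2 is a subunit of the origin recognition complex, which binds DNA before S phase and loads the MCM helicase from which replication starts. In Drosophila the complex has no strict sequence preference and is often found at open chromatin, such as the promoters of active genes. The larval fat body stores lipid and protein for metamorphosis, and its cells become polytene through endocycles, in which S phase repeats without division. The comparison asks where ORC2 was still called on the autosome arms late in larval life. The study detected no DNA synthesis in late-3rd instar fat body, and ORC2 was no longer concentrated in its nuclei. Whether a late-3rd instar call marks ORC2 that stayed bound or background signal was not tested.

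The all-stage regions made up 8.48% of the 2nd instar arm regions (95% Wilson interval 7.62 to 9.44, which covers counting only and treats regions as independent). Their share was similar from arm to arm. There were 83 of 909 on 2L (9.13%), 70 of 849 on 2R (8.24%), 74 of 928 on 3L (7.97%) and 81 of 944 on 3R (8.58%), and the interval of each arm held the value of the other arms. Of the other 3322 arm regions, 1016 had a counterpart at mid-3rd instar alone, 109 had one at late-3rd instar alone and 2197 had none. A late-3rd instar region lay within 1 kb of 308 of the 1324 regions that also had a mid-3rd instar region (23.3%), and of 109 of the 2306 that had none (4.73%). Counted in the other direction, 319 of the 1674 arm regions listed at mid-3rd instar (19.1%) and 314 of the 549 listed at late-3rd instar (57.2%) lay within 1 kb of an all-stage region. All-stage regions thus covered a small part of the early lists and more than 50% of the last one. This order follows from the rule, since the lists become shorter from stage to stage and the overlap is counted against each.

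The late-3rd instar replicates stood apart from each other at these regions. At 2nd instar, peaks of both replicates were present at 279 of the 308 regions (90.6%), of replicate 1 alone at 14 and of replicate 2 alone at 15. At mid-3rd instar both replicates had peaks at 186 regions (60.4%), replicate 1 alone at 28 and replicate 2 alone at 94. At late-3rd instar both had peaks at 41 regions (13.3%, interval 9.97 to 17.6), replicate 1 alone at 31 and replicate 2 alone at 236. Over all arm regions of the lists, both replicates had peaks at 54.5%, 27.8% and 8.38% in the same order of stages. These shares count peaks inside each single region. At the later stages, those of the all-stage regions count peaks over all later regions within 1 kb, so the 2 sets of later shares are not directly comparable. Membership therefore rested mostly on late-3rd instar replicate 2: without its peaks 72 of the 308 regions met the rule, and without those of replicate 1 there were 277. Leaving out either replicate of an earlier stage left between 214 and 294. Peaks of both replicates at all 3 stages were present at 26 regions (8.44%).

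**Figure D1:**
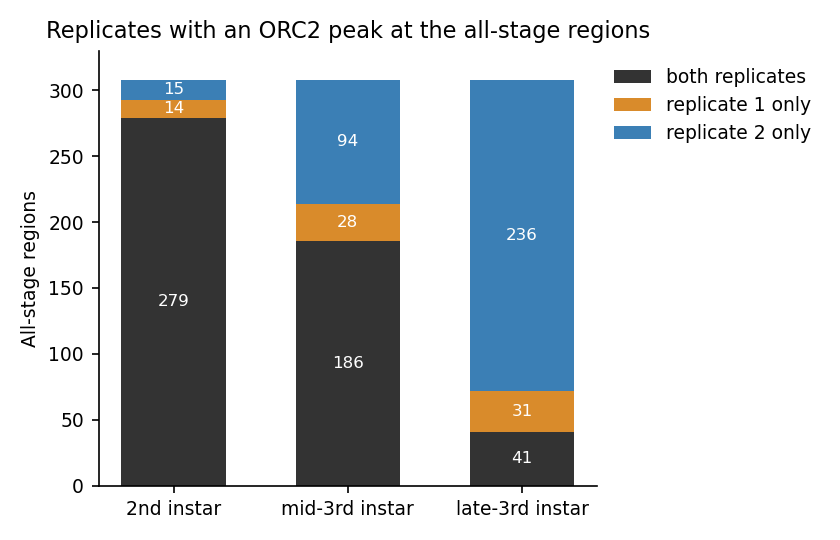
Number of all-stage regions (y axis) with ORC2 peaks of both replicates, of replicate 1 only or of replicate 2 only, at each larval stage (x axis). Regions with both replicates number 279, 186 and 41 from 2nd to late-3rd instar, and those with replicate 2 alone number 15, 94 and 236.

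The high-confidence lists, which hold peaks ranked alike in both replicates (IDR, the irreproducible discovery rate, under 0.1), showed the same order. A high-confidence peak lay within 1 kb of 174 all-stage regions at 2nd instar (56.5%), against 562 of the other 3322 arm regions (16.9%). At mid-3rd instar there were 107 (34.7%) against 113 (3.40%), and at late-3rd instar 20 (6.49%) against 3 (0.0903%). The rule used the same peaks, so nothing is read from these differences. The median IDR at the all-stage regions was 0.0113 at 2nd instar, then 0.0342 (mid-3rd instar) and 0.0519 (late-3rd instar), where a lower value marks a peak that ranked higher in both replicates. Over all high-confidence peaks of the arms, 695, 233 and 28 in number at the 3 stages, the medians were 0.0374, 0.0426 and 0.0519. Of these peaks 180, 109 and 21 lay at all-stage regions, and the arm medians count peaks where the others count regions. No difference is therefore read from the medians. High-confidence peaks at 2nd and mid-3rd instar but not at late-3rd instar were found at 70 regions, at 2nd instar alone at 94, and at no stage at 97. Only 6 regions had one at each of the 3 stages.

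Those 6 regions were on all 4 arms and had no common type of neighbour. The region with the lowest 2nd instar IDR (0.000176) lay on 2L from 14011409 to 14012019 (all positions are Release 6), and held 1 peak of each replicate at every stage. It lay between the gene of a glutamine tRNA, tRNA:Gln-CTG-4-1, whose nearer end was 772 bp away, and bgm, which encodes an acyl-CoA synthetase for very long fatty acids. A wider region on 2L, from 10339354 to 10343116, held 4 peaks of replicate 1 and 2 of replicate 2 at 2nd instar, 1 and 2 at mid-3rd instar, and 2 and 1 at late-3rd instar. It overlapped SamDC, the S-adenosylmethionine decarboxylase of polyamine synthesis, CG31715 and Sps2, a selenophosphate synthetase, and lay within 1 kb of GATAd, a GATA factor. On 3L, the region from 16037005 to 16037660 overlapped CG5895 and lay within 1 kb of Diap1, the inhibitor of apoptosis, with 1 peak of each replicate at every stage.

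The other 3 lay away from gene ends. On 3R, the region from 27867651 to 27868312 was inside CG34353, 3188 bp from the nearest gene end, that of CG12426. The table lists no gene at the region on 2R from 4098013 to 4100940, whose nearest gene end was 30033 bp away, or at the region on 3L from 26704591 to 26707580, whose nearest was 333234 bp away. The region on 3L held 1 peak of replicate 1 and 3 of replicate 2 at 2nd instar and 1 of each at both later stages, and its late-3rd instar IDR was 0.0454. Among the 26 regions with both replicates at every stage, 9 had a gene end within 1 kb and 16 had a late-3rd instar high-confidence peak. More of the 26 had no gene within 1 kb than lay inside a gene away from its ends. Those without a gene included the regions on 2L from 502 to 2067 and on 3L from 27007895 to 27008505. Those inside a gene included regions in for, the cGMP-dependent protein kinase gene, CadN, the N-cadherin gene, and Rdl, a GABA receptor gene. Of the 26, 13 were on 2L, 6 on 2R, 6 on 3L and 1 on 3R.

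Regions were also taken by their 2nd instar IDR. For each arm the 3 lowest were taken, 12 regions in all, with IDR between 1.46e-05 and 8.37e-05. Each held peaks of both replicates at 2nd instar and a late-3rd instar peak of replicate 2 alone, 600 bp wide in the late list. A late-3rd instar call of replicate 2 alone, at any width, was the usual one, at 149 of the 174 all-stage regions with a 2nd instar high-confidence peak. On 2L they lay at Socs36E, a suppressor of JAK/STAT signalling, at CG17597 and ScpX, a sterol carrier protein gene, and inside bun, the homologue of mammalian TSC22, where the nearest gene end was 11640 bp away. On 2R they lay at vlc, at the U3 snoRNA gene snoRNA:U3:54Aa, whose product guides cleavage of the ribosomal RNA precursor, and at RNASEK. On 3L they lay at RpL15, a protein of the large ribosomal subunit, at l(3)80Fg and inside Eip74EF, an early ecdysone response gene with an ETS domain, 21919 bp from its nearer end. On 3R they lay at CG6465, at Pi3K92E, the catalytic subunit of the insulin-responsive PI 3-kinase, and at PolQ, the polymerase of theta-mediated end joining, with Men, the malic enzyme gene, within 1 kb. In 10 of the 12 both replicates had mid-3rd instar peaks and a high-confidence one, apart from Socs36E, which had both replicates but no high-confidence peak, and RNASEK, which had replicate 1 alone.

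The later regions lay mostly on the 2nd instar regions themselves, although the rule allowed 1 kb. A mid-3rd instar region overlapped 293 of the 308 directly (95.1%), a late-3rd instar region overlapped 282 (91.6%), and both did so at 273 (88.6%). The middle of the nearest mid-3rd instar region was a median of 83.8 bp from the middle of the 2nd instar region, and that of the nearest late-3rd instar region 109 bp. The all-stage regions were 600 to 11250 bp wide at 2nd instar, with a median of 693 bp, and the other arm regions had a median of 614 bp. The nearest regions were narrower in the later lists, with a median of 622 bp at mid-3rd instar and 600 bp at late-3rd instar. Both replicates had peaks at 279, 186 and 41 of the 308 from 2nd to late-3rd instar, and merging peaks can widen a region. The narrower widths are therefore not read as a change at the regions. Since 600 bp is the narrowest 2nd instar width in the list and was shared by 1535 of the other regions (46.2%) and 27 of the all-stage regions (8.77%), such a width need not be that of a measured peak. Regions over 2000 bp wide numbered 69 of the 308 (22.4%), against 342 of the other 3322 (10.3%). A wider 2nd instar region meets the 1 kb rule more easily. Peaks of both replicates were also present at 2nd instar at 90.6% of the all-stage regions and 51.1% of the others. The differences in width therefore depend in part on the rule, and nothing is read from them.

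The distance differed with the late-3rd instar replicate. This split, and every result given by it, was chosen after the values were seen. The middles were a median of 70.5 bp apart at the 236 regions with late-3rd instar replicate 2 alone, 414 bp at the 41 with both and 917 bp at the 31 with replicate 1 alone. Regions with replicate 1 alone were also wider at 2nd instar (median 1366 bp, against 662 bp with replicate 2 alone). Among regions under 700 bp wide the medians were 33.5 bp with replicate 2 alone (133 regions), 162 bp with both (16 regions) and 205 bp with replicate 1 alone (9 regions), so the order held at one width class. Direct overlap was present at 222 of 236 (94.1%) with replicate 2 alone, 38 of 41 (92.7%) with both and 22 of 31 (71.0%) with replicate 1 alone.

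**Figure D2:**
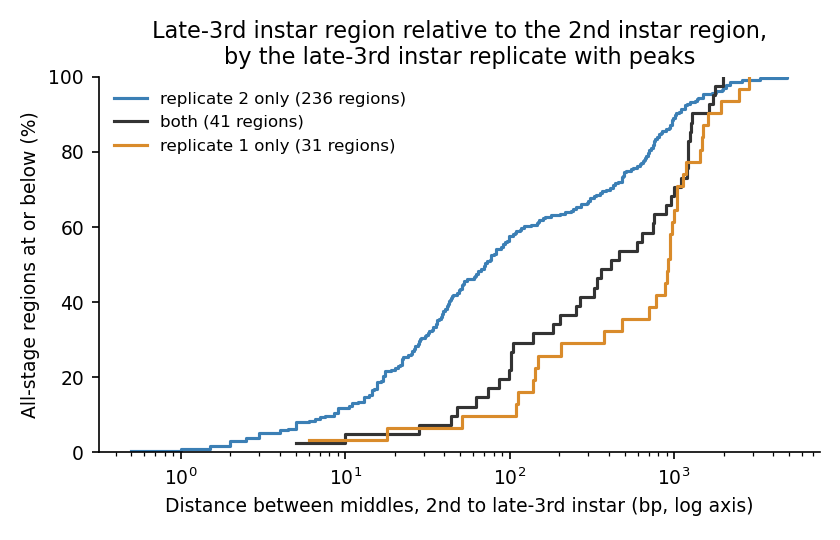
Share of all-stage regions (y axis, %) whose nearest late-3rd instar region had its middle at or below the distance on the x axis (bp, log axis) from the middle of the 2nd instar region, by the late-3rd instar replicate with peaks. The medians are 70.5 bp with replicate 2 alone (236 regions), 414 bp with both (41) and 917 bp with replicate 1 alone (31).

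The wider of the gaps to the 2 later regions was over 500 bp at 9 all-stage regions, and it was between 1000 and 2000 bp at 78 regions outside the limit. The 2 all-stage regions nearest to it were on 2L from 94473 to 95073, at Zir, with a late-3rd instar region 905 bp away, and on 2L from 21429430 to 21430892, at the histone genes His4:CG33907 and His3:CG33806, with one 817 bp away. The 2 nearest regions outside it were on 2R from 19475617 to 19477456, inside par-1, a polarity kinase gene, with a gap of 1031 bp, and on 3L from 68512 to 69111, at Lsp1gamma, with a gap of 1041 bp.

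Gene position was not used to choose the regions. The gene table gives both ends of a gene but no strand, so the start could not be told from the end and a region was counted as near a gene if either end lay within 1 kb. This was so for 210 of the 308 all-stage regions (68.2%, 62.8 to 73.1), against 2163 of the other 3322 (65.1%, 63.5 to 66.7) and 65.4% of all arm regions. The difference was 3.07 percentage points, with a 95% Newcombe interval of -2.56 to 8.28, which includes 0, so no difference from the rest in gene ends was resolved for the all-stage regions as a whole. Against the 1016 regions kept to mid-3rd instar only (74.4%) the difference was -6.23 points (-12.2 to -0.554), against the 2197 listed at 2nd instar only (61.9%) it was 6.28 points (0.519 to 11.6), and against the 109 shared with late-3rd instar only (43.1%) it was 25.1 points (14.2 to 35.3). The last class differed in late-3rd instar support, with replicate 1 alone at 62 of the 109, replicate 2 alone at 40 and both at 7. With replicate 2 alone 60.0% of them lay near a gene end, against 76.3% of such all-stage regions. With replicate 1 alone it was 35.5% against 51.6%, and with both 1 of 7 against 34.1%. With regions of like 2nd instar support the difference from all other arm regions was smaller still: among regions with a 2nd instar high-confidence peak, 130 of 174 all-stage regions (74.7%) and 421 of 562 others (74.9%) had a gene end within 1 kb. Regions inside a gene and over 1 kb from a gene end made up 21.1% of the all-stage regions (65) and 29.0% of the others, and regions with no gene within 1 kb 10.7% (33) and 5.90%.

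The share near a gene end depended on the late-3rd instar replicate. It was 180 of 236 (76.3%, 70.5 to 81.3) with replicate 2 alone, 16 of 31 (51.6%, 34.8 to 68.0) with replicate 1 alone and 14 of 41 (34.1%, 21.6 to 49.5) with both. The regions with replicate 2 alone were 34.6 points (21.7 to 46.4) above the 72 with peaks of replicate 1 (41.7%). Among regions under 700 bp wide the shares were 102 of 133 (76.7%) with replicate 2 alone, 3 of 9 with replicate 1 alone and 5 of 16 with both. The late-3rd instar list as a whole showed the same contrast on the arms: 220 of its 319 regions with replicate 2 alone (69.0%) lay near a gene end, against 69 of 184 with replicate 1 alone (37.5%) and 13 of 46 with both (28.3%). At mid-3rd instar the shares were 70.7%, 70.3% and 70.8% in the same order. At 2nd instar the replicates differed the other way, with 303 of 632 regions (47.9%, 44.1 to 51.8) near a gene end with replicate 2 alone, 677 of 1021 (66.3%, 63.4 to 69.1) with replicate 1 alone and 1393 of 1977 (70.5%) with both. The 308 regions thus held a larger set, mostly near gene ends, with late-3rd instar peaks of replicate 2 alone, and a smaller set with peaks of replicate 1, of which fewer lay near a gene end. The lists hold no reads, so the depth of the replicates was not compared.

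**Figure D3:**
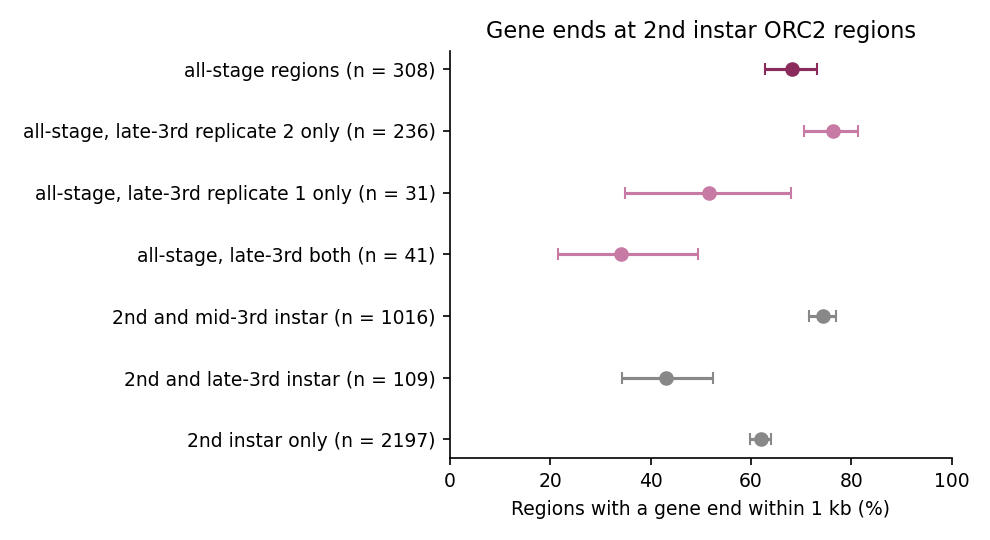
Share of 2nd instar autosome arm regions with a gene end within 1 kb (x axis, %; points with 95% Wilson intervals) for all-stage regions, for the same split by late-3rd instar replicate, and for the 3 other classes named by the stages that listed them. All-stage regions lie at 68.2%, at 76.3% with late-3rd instar replicate 2 alone and at 34.1% with both replicates.

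Of the 14865 genes on the arms, 456 (3.07%) had an end within 1 kb of an all-stage region and 4142 (27.9%) within 1 kb of another 2nd instar region only. The protein-coding genes among them had a median length of 3284 bp at all-stage regions (365 genes), 2732 bp at other regions and 1834 bp where there was no region. Of 13 lists of genes by symbol, those of histones, heat shock and spliceosomal and other small nuclear RNAs had the highest shares at all-stage regions, and all of these lists hold close copies, between which reads may not be told apart. Genes were counted by their distance to the 2nd instar region, whether or not another gene lay nearer. Of the 456, 394 (86.4%) also had an end within 1 kb of a region at both later stages. This held for every gene counted at all-stage regions in the heat shock, snRNA, snoRNA and cytoplasmic ribosomal protein lists, for 20 of 28 histone genes and for 19 of 23 tRNA genes. At least 1 gene of a list lay at 50 of the all-stage regions (16.2%) and at 258 of the others (7.77%). The lists also differed in how often their genes lay at any 2nd instar region. This was so for 30.9% of all genes, 57.7% of cytoplasmic ribosomal protein genes, 59.9% of tRNA genes and 97.4% of histone genes. A share at all-stage regions therefore also reflects how many genes of the list lay at any 2nd instar region.

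Heat shock proteins are chaperones, and several of their genes are known in Drosophila for a promoter that stays open and holds a paused polymerase. An all-stage region lay at 7 of 22 heat shock genes (31.8%, 16.4 to 52.7), another 2nd instar region at 6. On 3R, 4 regions lay at copies of the inducible Hsp70: Hsp70Aa from 11956172 to 11956774, Hsp70Ab from 11958233 to 11958852, Hsp70Ba from 12467542 to 12468254, and Hsp70Bb with Hsp70Bbb from 12505510 to 12506115. The other 2 were at Hsp83, the Hsp90 gene, on 3L from 3192803 to 3193428, and at Hsc70-4, a constitutive Hsp70 relative, on 3R from 15242220 to 15242866. All 6 regions were between 603 and 713 bp wide, held peaks of both replicates at 2nd and at mid-3rd instar, and held a late-3rd instar peak of replicate 2 alone. A 2nd instar IDR was given for 4 of them, between 0.000284 at Hsc70-4 and 0.0606 at Hsp70Bb, while Hsp70Aa and Hsp83 had no high-confidence peak of their own at that stage.

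Small nuclear RNAs act in splicing and, for 7SK, in the control of transcript elongation. An all-stage region lay at 7 of 30 such genes (23.3%, 11.8 to 40.9), namely snRNA:U1:21D, snRNA:U1:95Ca, snRNA:U2:34ABb, snRNA:U6:96Aa, snRNA:U6:96Ab, snRNA:U6:96Ac and snRNA:7SKa. They were covered by 6 regions, of 12 regions at such genes in all. The 6 regions held both replicates at 2nd instar, 5 of them at mid-3rd instar, and replicate 2 alone at late-3rd instar. The lowest IDR at 2nd instar was 0.000116, at snRNA:U1:95Ca on 3R. snoRNA genes were at all-stage regions in 15 of 226 cases (6.64%), and all 8 regions again had replicate 2 alone at late-3rd instar. Part of these snoRNA genes lie within ribosomal protein genes that are counted below, such as snoRNA:Me18S-C419 within RpL15 and snoRNA:Me18S-A425 within RpL3.

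Genes of the cytoplasmic ribosome were at all-stage regions in 7 of 71 cases (9.86%, 4.86 to 19.0) and at other regions in 34. Counted by region, 7 of the 48 regions at such genes were all-stage regions (14.6%, 7.25 to 27.2). That interval held the 8.48% of all arm regions, so no excess over other 2nd instar regions was resolved. They were RpL3, RpL15, RpL32 and RpS20 on chromosome 3, and RpL5, RpL38 and RpS15 on chromosome 2. Every one of the 7 regions had peaks of both replicates at 2nd and at mid-3rd instar, a high-confidence peak at mid-3rd instar, and replicate 2 alone at late-3rd instar. Their 2nd instar IDR, given for 6 of them, was between 2.14e-05 at RpL15 and 0.0319 at RpS15. Mitochondrial ribosomal proteins gave 3 of 62 genes (mRpL55, mRpS5 and mRpS21), translation factors 2 of 44 (eEF1delta and eEF5) and the proteasome 1 of 42 (Prosalpha6), shares of 4.84%, 4.55% and 2.38% whose intervals held the 3.07% of all genes.

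At the tRNA genes the late-3rd instar calls came from either replicate. An all-stage region lay at 23 of 269 nuclear tRNA genes (8.55%, 5.76 to 12.5), in 12 regions of 80 at such genes. Late-3rd instar peaks were of replicate 2 alone at 7 of the 12, of replicate 1 alone at 4 and of both at 1, the region at tRNA:Gln-CTG-4-1 described above. On 2R, 3 of the regions, from 6150970 to 6153943, from 6161016 to 6161873 and from 6168479 to 6169124, lay at asparagine, arginine and lysine tRNA genes. Among these were tRNA:Asn-GTT-1-1, tRNA:Arg-ACG-1-2 and tRNA:Lys-CTT-1-2. At the first region, tRNA:Asn-GTT-1-1, tRNA:Asn-GTT-1-2 and tRNA:Asn-GTT-1-3 had no mid-3rd or late-3rd instar region within 1 kb of the gene itself. All 3 regions overlapped EcR, the ecdysone receptor gene, and the last also lay at an end of it. EcR was the only gene of 16 in the ecdysone response list with an end at an all-stage region, and at that region it cannot be told apart from tRNA:Arg-ACG-1-3. Measured to any part of a gene, 3 genes of the list were at all-stage regions. Such regions lay inside Eip74EF and Eip75B, over 1 kb from a gene end. Those in Eip75B began on 3L at 17987964, 18019525 and 18061545. Alanine tRNA genes on 3R, among them tRNA:Ala-AGC-2-6, lay at a region from 17644490 to 17647365 with both replicates at the 2 earlier stages and replicate 1 alone at late-3rd instar.

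The histone genes form a tandem array on 2L. An all-stage region lay at 28 of 114 histone genes (24.6%, 17.6 to 33.2), and another 2nd instar region at 83, so nearly the whole array was near some 2nd instar region. The 28 genes, among them His1:CG33804, His1:CG33807 and His1:CG33819, fell in 8 of the 30 regions at histone genes, between 602 and 3098 bp wide. Late-3rd instar peaks at the 8 were of replicate 2 alone at 4, of replicate 1 alone at 2 and of both at 2. The region from 21426742 to 21428350, at His1:CG33804, had the only late-3rd instar high-confidence peak (IDR 0.0350), with 2 peaks of replicate 1 and 1 of replicate 2 at 2nd instar, 3 of each at mid-3rd instar and 1 of each at late-3rd instar. The copies of the array are nearly identical, so a region there does not show from which copy its reads came. The interval above treats the 114 genes as independent, although the 28 fell in 8 regions of a single array.

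The fat body list holds genes of storage, lipid metabolism and insulin signalling. In it, an all-stage region lay at 4 of 22 genes (18.2%, 7.31 to 38.5) and another 2nd instar region at 14. Counted by region, 4 of the 27 regions at such genes were all-stage regions (14.8%, 5.92 to 32.5), an interval that held the 8.48% of all arm regions. The 4 genes were Lsp1beta and Lsp1gamma, which encode larval storage proteins, chico, the insulin receptor substrate, and foxo, the transcription factor that insulin signalling holds back. Lsp1beta shared its region, on 2L from 901288 to 901907, with snRNA:U1:21D. That at chico, on 2L from 10235839 to 10242283, was 6445 bp wide with 5 peaks of each replicate at 2nd instar, 1 and 2 at mid-3rd instar, and 1 and 0 at late-3rd instar. It overlapped mthl15 and me31B but not chico, and no later region lay within 1 kb of an end of chico itself. The region belonged to a group of 4 all-stage regions between 10220921 and 10242283, the largest on the arms, which also held Prosalpha6, eEF1delta and Npc1a, a sterol transport gene. The region at foxo, on 3R from 14088623 to 14089349, had both replicates at 2nd and mid-3rd instar and replicate 2 alone at late-3rd instar. Its nearest gene was Npc2b, 167 bp away. Of 25 replication and endocycle genes only E2f1, the activator of S phase genes, was at an all-stage region. That region, on 3R from 21618439 to 21619837, overlapped InR and not E2f1, and E2f1 cannot be told apart from InR there. None of the 100 5S rRNA genes on the arms was near any 2nd instar region. The Wilson interval of that list, up to 3.70%, treats the genes as independent, and whether reads could be placed at these genes was not tested.

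**Figure D4:**
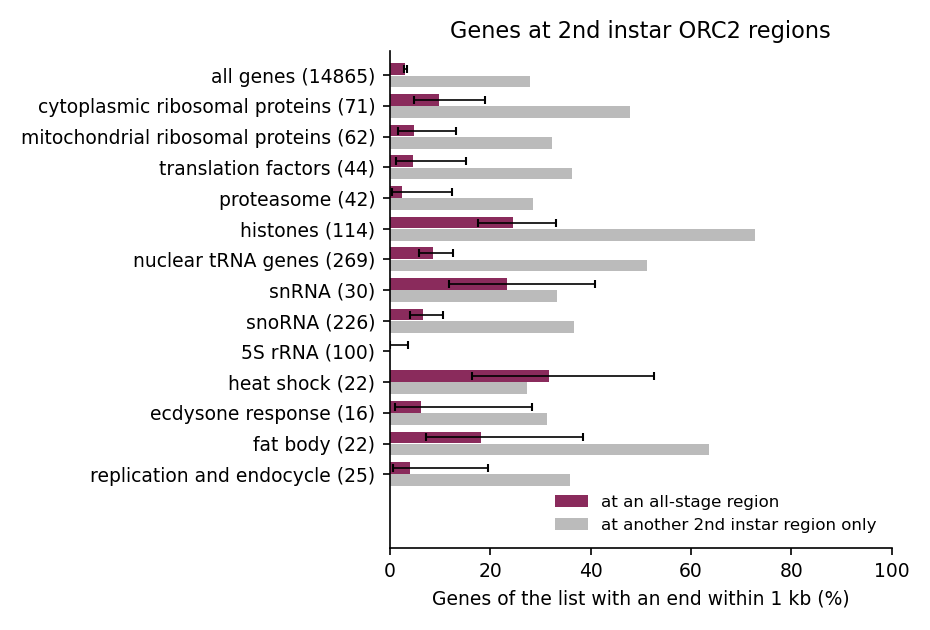
Share of the genes in each list (x axis, %; number of genes in brackets) with an end within 1 kb of an all-stage region (purple, with 95% Wilson intervals) or of another 2nd instar region only (grey). Heat shock genes have 31.8% at all-stage regions, histone genes 24.6% and snRNA genes 23.3%, against 3.07% of all arm genes.

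Without the peaks of late-3rd instar replicate 2, no gene of the heat shock, snRNA, snoRNA or cytoplasmic ribosomal protein lists was at an all-stage region, and 12 histone genes and 9 tRNA genes were. Without those of replicate 1 there were 7, 7, 15 and 7 in the first 4 lists, 20 histone genes and 15 tRNA genes.

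Along the arms the all-stage regions were spread unevenly. Each arm was divided into 10 equal segments from the telomere to the centromere. In the segment next to the centromere 38 of 179 regions (21.2%, 15.9 to 27.8) were all-stage regions, against 270 of 3451 in the other segments (7.82%, 6.97 to 8.77). Without the regions at histone genes, which lie in that segment on 2L, the share was 30 of 149 (20.1%, 14.5 to 27.3). Of the 38, 18 were on 2L, 12 on 3L, 6 on 2R and 2 on 3R, and 21 had a gene end within 1 kb (55.3%), among them RpL5 and RpL15. Late-3rd instar peaks at the 38 were of replicate 2 alone at 24, of both at 11 and of replicate 1 alone at 3. In the outermost segment the share was 11.3% and in the next one 3.99%, and within 100 kb of the outer ends 14 of 43 regions were all-stage regions (32.6%). The lists hold no reads, so whether reads near either end of an arm could be placed at a single position was not tested. Calls that recur there for that reason cannot be told apart from ORC2 that stayed bound.

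**Figure D5:**
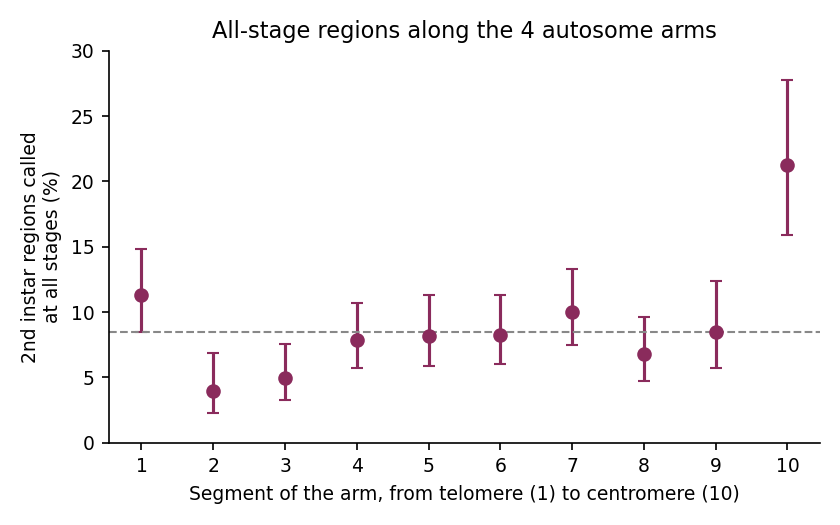
Share of 2nd instar regions called at all stages (y axis, %; points with 95% Wilson intervals) in each of 10 equal segments of the 4 autosome arms together, from telomere (1) to centromere (10) on the x axis. The dashed line is the share over all arms, 8.48%. The value is 21.2% in the segment next to the centromere and 3.99% in the second from the telomere.

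ORC2 regions were about as crowded around the all-stage regions as around the others. A median of 5 other 2nd instar regions lay within 50 kb of an all-stage region and of another region, and the means were 6.36 ± 4.49 and 5.70 ± 3.72 (SD over regions, n = 308 and 3322). No other region lay within 50 kb of 20 all-stage regions (6.49%) and of 3.49% of the others. Of the 308, 264 had no other all-stage region within 5 kb, and the remaining 44 formed 20 groups, so that neighbours counted as 1 gave 284 places.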

How the data were processed

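Peak lists of ORC2 ChIP-seq in larval fat body, 2 for each of 3 stages, were analysed, with stages taken from the sample labels. The authors aligned 40 nt paired-end reads with Bowtie2, called peaks per replicate with MACS2 against input (q under 0.05) and deposited, per stage, the regions merged over both replicates, whose peak names show the replicate, and the high-confidence peaks, each with its deposited IDR score. The versions are not given in the sources used here. The labels and methods differ in the version of the library kit, and the methods name dm3. Gene ends of Release 6 lay within 1 kb of 68.2% of the all-stage regions, against 44.8% after a shift of 2000 bp and 32.5% after one of 100000 bp, and positions are therefore given in Release 6, without conversion.

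A distance is the number of bases between 2 regions. At mid-3rd and late-3rd instar, peaks of a replicate at a 2nd instar region were counted over all regions of that stage within 1 kb. At 2nd instar, and over all arm regions of a list, they were counted inside each single region. Gene starts had been planned, but the gene table used (RefSeq, Release 6) gives no strand, so both gene ends were used, and motifs in promoters were not analysed here. Shares have 95% Wilson intervals and differences Newcombe intervals, both treating regions as independent. Intervals of the gene lists treat genes as independent, also where several share a region or an array. No model was fitted and no p-value computed, since the regions were selected on the calls. With 2 replicates per stage, no spread between replicates was estimated. The replicates are biological replicates in the study's methods.

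Regions named were those with a high-confidence peak at all 3 stages, the 3 with the lowest 2nd instar IDR on each arm, and 2 on either side of the 1 kb limit. Genes named were the ones at these regions and those of 13 lists by symbol at all-stage regions, the first 6 by symbol where a list had more. The regions with both replicates at every stage, further genes of the long lists, the split by late-3rd instar replicate and the positions along the arms were chosen after their values were seen. The regions and lists were chosen with earlier results of these data known. Distances were tested on simulated regions. Tables were handled in pandas 2.3.3 and numpy 2.4.6 under Python 3.11.15, intervals came from statsmodels 0.14.6 and scipy 1.17.1, and plots from matplotlib 3.10.9.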

Additional observations from a re-analysis of the deposited data

How the results depend on the processing

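The number of all-stage regions was 273, 299 and 386 at distances of 0, 500 and 2000 bp, and 560 at 5000 bp. It was 26 where both later regions had to hold peaks of both replicates, and 5 with high-confidence lists at all 3 stages. Without 1 replicate it was between 72 and 294, the lowest without late-3rd instar replicate 2. The share near a gene end was 60.5% for the regions found at 5000 bp, 34.6% for those with both replicates at both later stages and 40% for those of the high-confidence lists. Without 1 replicate it was between 41.7% and 71.0%, the lowest again without late-3rd instar replicate 2. It was 65.6% within 0.5 kb, 71.8% within 2 kb, 63.6% from the middle of the region, 64.3% with protein-coding genes and 69.7% with neighbours counted as 1. Without regions at histone, tRNA, snRNA, snoRNA or Hsp70 genes, a choice made after seeing the data, 273 regions were left, 64.1% of them near a gene end. Measured to any part of a gene, 517 genes in place of 456 were at all-stage regions, and the ecdysone response list had 3 in place of 1. The mean number of neighbours was 0.66 higher than at other regions within 50 kb and 0.15 within 20 kb. The planned motif alternatives were not run, because no promoter sequences were at hand. No paired analysis was possible because no model was fitted to the lists. The lists hold no reads, so depth could not be set beside the difference between the late-3rd instar replicates.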
